A study of Mus musculus with 8 samples.

Results

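The 33 genes described here are immediate early genes and heat shock genes, chosen by name in the deposited expression table, where all 33 were found among 35275 genes. Their levels were measured by RNA sequencing in macrophages sorted from 8 subcutaneous mouse tumors of MC38, a colon adenocarcinoma cell line. Of the mice, 4 were labelled Atg5 KO (Atg5flox/flox with LysMcre) and 4 were labelled Atg5 WT (Atg5flox/flox, with no Cre named), and both groups carried the floxed Atg5 alleles in female C57BL/6J mice. The mice were 6 to 8 weeks old when they received 100000 MC38 cells in the flank, and tumors were taken at day 21. The sort kept CD11b+ F4/80+ Ly6G- Ly6C- cells, and RNA came from 500000 to 1000000 cells per mouse. LysMcre is a Cre recombinase at the Lyz2 locus that acts in myeloid cells, so the tumor cells and the other cells of the host keep Atg5, a gene needed to form autophagosomes.

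Immediate early genes are switched on within minutes of a stimulus, without new protein synthesis. Kinase cascades activate transcription factors that are already present, such as SRF with its ELK partners, CREB and NF-kappaB, and the short-lived mRNAs encode a second layer of transcription factors together with proteins that shut the signal down. Heat shock genes are switched on by HSF1 when unfolded proteins occupy the chaperones. In macrophages both sets respond to microbial products, cytokines and adhesion, and both are also known to be induced while tissue is digested and sorted.

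Fragments assigned to genes numbered between 16168331 and 25555195 in the KO-labelled libraries and between 14799546 and 21554368 in the Atg5 WT libraries. Atg5 itself was not lower in the KO-labelled libraries, at 14.0 ± 1.51 FPKM against 4.52 ± 1.49 FPKM in the Atg5 WT libraries (SD, n = 4 each), a difference of 1.47 ± 0.17 (SE) in log2(FPKM + 1) with an adjusted p of 0.0987 in limma and of 0.00481 when mouse numbers were blocked. Its direction is opposite to the label, so each direction below rests on the label. Lyz2, the locus of the Cre, was at 3022 ± 310.6 FPKM in the KO-labelled libraries and 5249 ± 825 FPKM in the Atg5 WT libraries (SD, n = 4 each). The Atg5 value covers the whole gene and does not check the deletion of the floxed part. FPKM is a level per kilobase of gene, scaled by the total fragments of the library. Macrophage markers were high in all 8 libraries, with Csf1r between 347 and 392.5 FPKM in the KO-labelled libraries and between 364 and 389 FPKM in the Atg5 WT libraries, and Adgre1, which encodes F4/80, at 94.6 FPKM or more. On the first principal component (58.9% of the variance) mouse 1 of each group lay far from the rest, and on the second (18.3%) KO-labelled mouse 2 did. The labels name separate mice and no batch.

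Most of the 33 genes, but not all, were abundant transcripts. Together the 33 took between 1.73% and 2.02% of the fragments in the KO-labelled libraries and between 1.67% and 2.13% in the Atg5 WT libraries. By mean FPKM, 16 of them were among the highest 500 genes and 24 among the highest 1000, while Egr3 ranked 7014. Junb was the most abundant member, with 1357 ± 248 FPKM in the KO-labelled libraries and 1599 ± 383 FPKM in the Atg5 WT libraries (SD, n = 4 each). Next in mean level came Ier3, Hspa8, Zfp36, Fos and Fosb. Egr3 was the lowest, with 6.46 ± 2.32 FPKM in the KO-labelled libraries and 5.96 ± 1.14 FPKM in the Atg5 WT libraries (SD, n = 4 each). Every member had at least 114 fragments in every library, and all 33 passed the filter of a mean of 1 FPKM, as did 11019 genes of the table. In bulk RNA from sorted cells, a level in fewer cells and a lower level per cell cannot be told apart.

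**Figure D1:**
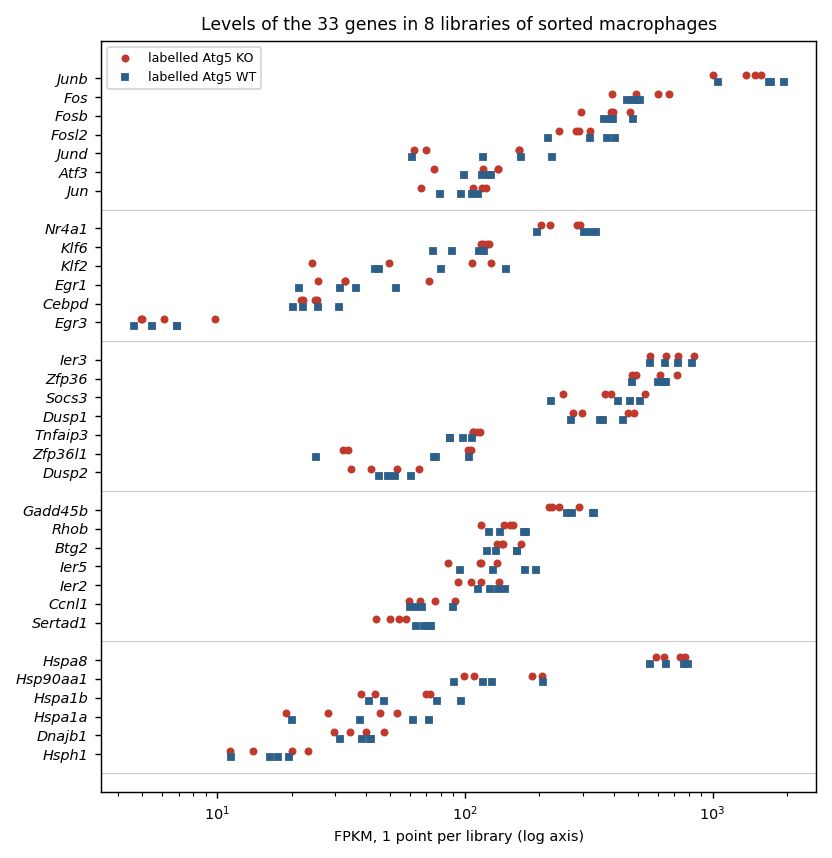
FPKM of each gene on a log axis, with 1 point per library, KO-labelled libraries as red circles above Atg5 WT libraries as blue squares, and genes ordered by mean level within each role. Junb lies highest and Egr3 lowest, and the groups overlap for all genes but Sertad1 and Tnfaip3.

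The comparison asked whether these genes differ between macrophages of mice with and without the Cre. None of the 33 passed an adjusted p of 0.05 in limma on log2(FPKM + 1), with Benjamini-Hochberg adjustment over all genes tested, and 0% of the 11019 genes passed. At an unadjusted p under 0.05 there was 1 member higher in the KO-labelled libraries, Tnfaip3, where 1.2% of all genes were called, and 1 lower, Sertad1, where 0.826% of all genes were called. These were also the members whose groups did not overlap, against 1.15% of all genes with higher and 0.59% with lower KO-labelled values. Limma's voom on recovered fragments called no member either, with 1 member lower at an unadjusted p under 0.05, Sertad1, where 0.735% of all genes were called lower.

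Differences were negative for 21 members, as for 41.5% of all genes, and positive for 12, as for 58.5%. Their median was -0.05 on the log2(FPKM + 1) scale, against 0.03 over all genes tested, and they ranged from -0.43 to 0.30. The 95% interval of the difference lay within 1 log2 unit of 0, a doubling or halving, for 29 of 33 members, against 96.1% of all genes. The exceptions were Jund, Klf2, Zfp36l1 and Hspa1a, whose libraries differed most within the groups. With the mouse number as a block no member passed (smallest adjusted p in limma 0.446), but 7 had an unadjusted p under 0.05. Of these, Klf6 and Tnfaip3 were higher (5.19% of all genes were called higher with the block), and Gadd45b, Ier2, Ier5, Junb and Sertad1 were lower (3.62% were called lower).

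**Figure D2:**
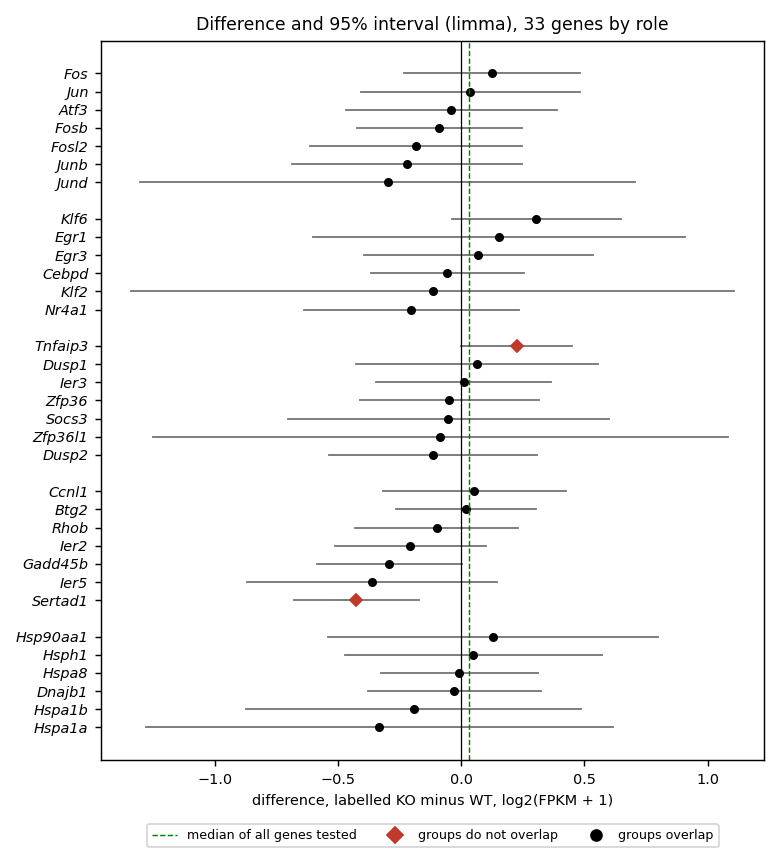
Difference of each gene, KO-labelled minus Atg5 WT, in log2(FPKM + 1) with its 95% interval from limma, by role, with red diamonds for the genes whose groups do not overlap and a dashed line at the median of all genes tested (0.03). Only the intervals of Sertad1 and Tnfaip3 leave out 0, and those of Klf2, Jund, Zfp36l1 and Hspa1a are the widest.

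Sertad1, which encodes a partner of cyclin-dependent kinase 4 and E2F that is induced by serum, had the lowest p of the set. Sertad1 (ENSMUSG00000008384, chromosome 7, 27486910 to 27490316, plus strand of mm10) had 54.5, 57.9, 43.8 and 49.8 FPKM in KO-labelled mice 1 to 4, against 72.3, 68.2, 73.1 and 63.4 FPKM in Atg5 WT mice 1 to 4. Every KO-labelled value lay below every Atg5 WT value. The means were 51.5 ± 6.12 FPKM in the KO-labelled libraries and 69.2 ± 4.45 FPKM in the Atg5 WT libraries (SD, n = 4 each), a difference of -0.43 ± 0.11 (SE) with an adjusted p of 0.999 in limma and an exact permutation p of 0.0286, two-sided, the smallest that 4 against 4 allows. Any gene whose groups separate gets this permutation p, so it adds nothing to the separation itself. Leaving out 1 library at a time gave differences between -0.48 and -0.35. Without both mouse 1 libraries it was -0.43. After removing the trend of each library with transcript GC content it was -0.35 ± 0.19 (SE).

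Tnfaip3, which encodes A20, a ubiquitin-editing enzyme that ends NF-kappaB signalling, was the member with separate groups in the other direction. Tnfaip3 (ENSMUSG00000019850, chromosome 10, 19000910 to 19015657, minus strand of mm10) had 112, 108, 115 and 108 FPKM in KO-labelled mice 1 to 4, against 97.998, 86.98, 87.3 and 107 FPKM in Atg5 WT mice 1 to 4. The lowest KO-labelled value and the highest Atg5 WT value lay close together. The means were 111 ± 3.56 FPKM in the KO-labelled libraries and 94.8 ± 9.51 FPKM in the Atg5 WT libraries (SD, n = 4 each), with a difference of 0.23 ± 0.10 (SE), an adjusted p of 0.999 in limma and an exact permutation p of 0.0286. The permutation p follows from the separation, as for Sertad1. Without both mouse 1 libraries the difference was 0.24, and after the GC trend was removed it was 0.17 ± 0.10 (SE).

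The upstream sequences of both genes are shown because they are the members whose groups separated. The lines come from the 250 bases before a RefSeq transcript start on GRCm38.p6, the build that mm10 names, read 5′ to 3′ on the strand of the gene. Bases inside a GENCODE M21 exon were cut off, 43 at the 3′ end of the Sertad1 window and 110 towards the 5′ end of the Tnfaip3 window, and the 3 bases beyond that exon were left out as well. The Tnfaip3 stretch therefore lies within the deposited bounds of its gene. The stretches shown are chr7:27486703-27486909 (plus strand) and chr10:19015411-19015547 (minus strand).
Sertad1: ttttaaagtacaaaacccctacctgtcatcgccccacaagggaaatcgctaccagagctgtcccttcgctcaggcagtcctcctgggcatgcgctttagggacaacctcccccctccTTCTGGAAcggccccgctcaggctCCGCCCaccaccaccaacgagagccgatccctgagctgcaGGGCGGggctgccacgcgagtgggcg
Tnfaip3: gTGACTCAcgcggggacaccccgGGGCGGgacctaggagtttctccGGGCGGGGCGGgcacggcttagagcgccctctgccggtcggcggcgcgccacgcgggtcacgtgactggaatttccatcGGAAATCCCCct
Capitals in Sertad1 mark paired heat shock element units (GAANNTTC or TTCNNGAA) and GC boxes (GGGCGG), and capitals in Tnfaip3 mark a kappaB site (GGG, any 2 bases, then TTTCC, here on the other strand), a TPA response element (TGACTCA) and GC boxes, of which a pair shares 1 base. Each motif was searched on both strands. Of 32851 full windows of 250 bases in the RefSeq table, 1.41% held the kappaB letters, 4.46% the TPA response element, 12.8% the paired heat shock units and 32.7% the GC box. Among the 27 members whose windows were searched, the kappaB letters and the TPA response element each occurred in 1, Tnfaip3. The GC box occurred in 24 and the paired heat shock units in 6 (Fosl2, Hspa1a, Hspa1b, Hsph1, Jun and Sertad1). A member was counted if any of its windows matched, whereas the percentages count single windows. These are matches of letters, not sites shown to be bound.

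Of the AP-1 and ATF genes, which encode bZIP proteins that bind DNA as pairs, none of 7 passed, with a median difference of -0.09. Fos, a partner of JUN in AP-1, had 492, 392.1, 667 and 600.2 FPKM in KO-labelled mice 1 to 4, against 476, 451, 496 and 512 FPKM in Atg5 WT mice 1 to 4. The KO-labelled values spanned those of the Atg5 WT libraries on both sides, with a difference of 0.13 ± 0.16 (SE). Without both mouse 1 libraries and KO-labelled mouse 2, which held the lowest Fos value, the difference was 0.38. This fit was added after the data were seen. In it Fos had an unadjusted limma p under 0.05, where 5.79% of all genes were called higher, but no call after adjustment. Fosb, a FOS relative, lay between 296 and 463 FPKM in the KO-labelled libraries and between 364 and 478 FPKM in the Atg5 WT libraries. Its KO-labelled value was the lower one for all 4 mouse numbers, though the difference was only -0.09 ± 0.15 (SE). Fosl2, which encodes FRA-2, had 283 ± 33.1 FPKM in the KO-labelled libraries and 329 ± 82.98 FPKM in the Atg5 WT libraries (SD, n = 4 each).

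Junb, a JUN relative that often restrains JUN activity, had 1009, 1363, 1576 and 1479 FPKM in KO-labelled mice 1 to 4, against 1050.0, 1687, 1941 and 1719.6 FPKM in Atg5 WT mice 1 to 4. The KO-labelled value was the lower one for all 4 mouse numbers, but the groups overlapped, with a difference of -0.22 ± 0.21 (SE). The labels do not pair mice by number. The share of all genes with such an order was not counted, for this gene or the others described so. Apart from both mouse 1 libraries, every KO-labelled value lay below every Atg5 WT value, but the share of all genes that separate in this way was not counted. With all libraries and the trend with transcript GC content removed, the Junb difference was -0.09 ± 0.12 (SE). Jund, the JUN relative expressed in resting cells, had 62.6, 69.6, 166 and 166 FPKM in KO-labelled mice 1 to 4, against 61.4, 119, 168 and 225 FPKM in Atg5 WT mice 1 to 4. In both groups the mouse 1 library was lowest for Jund, and KO-labelled mouse 2 stood near it. Jun had 103 ± 25.02 FPKM in the KO-labelled libraries and 98.9 ± 14.7 FPKM in the Atg5 WT libraries (SD, n = 4 each), and it overlaps the antisense gene Junos, which had 47.5 ± 4.38 FPKM in the KO-labelled libraries and 42.2 ± 6.005 FPKM in the Atg5 WT libraries (SD, n = 4 each). The sources used here do not give the strand setting of the counting, so the Jun level is uncertain. Atf3, a stress-induced factor that dampens inflammatory transcription, lay between 75.4 and 137 FPKM in the KO-labelled libraries and between 99.05 and 128 FPKM in the Atg5 WT libraries.

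Of the other early transcription factors, none of 6 passed, and the median difference was 0.01. Klf2, a factor that keeps macrophages quiescent, had the widest range of the 33 genes. Klf2 had 49.6, 24.2, 107 and 128 FPKM in KO-labelled mice 1 to 4, against 43.3, 44.9, 80.4 and 147 FPKM in Atg5 WT mice 1 to 4. The highest library had 6.06 times the level of the lowest, both groups held low and high libraries, and the difference was -0.12 ± 0.55 (SE). Klf6, a factor that promotes inflammatory gene expression in macrophages, had 126, 116, 123 and 119 FPKM in KO-labelled mice 1 to 4, against 119.9, 74.3, 88.6 and 115 FPKM in Atg5 WT mice 1 to 4. Its KO-labelled values lay close together and all but 1 Atg5 WT value lay below them, with a difference of 0.30 ± 0.15 (SE) and an unadjusted limma p of 0.0750. It was higher for all 4 mouse numbers.

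Egr1, a zinc finger factor induced through SRF and ELK, had 71.8, 32.9, 25.5 and 32.9 FPKM in KO-labelled mice 1 to 4, against 52.8, 21.4, 31.4 and 36.2 FPKM in Atg5 WT mice 1 to 4. Both mouse 1 libraries stood above the other 6 for Egr1, and the difference between the groups was 0.15 ± 0.34 (SE). Egr3, a relative of EGR1, had 9.84, 4.98, 6.11 and 4.92 FPKM in KO-labelled mice 1 to 4, against 5.44, 4.603, 6.89 and 6.92 FPKM in Atg5 WT mice 1 to 4, with KO-labelled mouse 1 highest. Nr4a1, which encodes the orphan nuclear receptor NUR77, had 249 ± 44.2 FPKM in the KO-labelled libraries and 289 ± 64.3 FPKM in the Atg5 WT libraries (SD, n = 4 each). Cebpd, a C/EBP factor of the acute response that the deposited table lists as a pseudogene and GENCODE M21 as protein coding, lay between 21.7 and 25.3 FPKM in the KO-labelled libraries and between 20.2 and 31.1 FPKM in the Atg5 WT libraries.

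Of the genes that shut responses down, none of 7 passed, and the median difference was -0.05. Zfp36 and Zfp36l1 encode RNA-binding proteins that direct the decay of mRNAs with AU-rich elements. Zfp36, also called tristetraprolin, had 574 ± 115 FPKM in the KO-labelled libraries and 589.9 ± 80.6 FPKM in the Atg5 WT libraries (SD, n = 4 each). Zfp36l1 had 32.2, 33.7, 103 and 106 FPKM in KO-labelled mice 1 to 4, against 25.1, 76.4, 75.3 and 104 FPKM in Atg5 WT mice 1 to 4. It was low in both mouse 1 libraries and in KO-labelled mouse 2 and at 75.3 FPKM or more in the other 5, and the difference between the groups was -0.09 ± 0.52 (SE). Dusp1, a phosphatase that inactivates p38 and JNK, had 272, 296, 483 and 458 FPKM in KO-labelled mice 1 to 4, against 268, 353, 362 and 436 FPKM in Atg5 WT mice 1 to 4. The mouse 1 libraries were the lowest of each group for Dusp1, and the difference was 0.06 ± 0.22 (SE).

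Socs3, an inhibitor of JAK and STAT signalling downstream of IL-6 family receptors, had 249, 369.5, 533 and 390.0 FPKM in KO-labelled mice 1 to 4, against 223, 417, 464 and 512 FPKM in Atg5 WT mice 1 to 4. It too was lowest in the mouse 1 libraries, and the groups overlapped over most of their range. Dusp2, a phosphatase of nuclear ERK and p38, lay between 34.9 and 65.2 FPKM in the KO-labelled libraries and between 45.005 and 60.8 FPKM in the Atg5 WT libraries. Ier3, an early gene linked to NF-kappaB and ERK signalling, had 694 ± 119 FPKM in the KO-labelled libraries and 688 ± 112 FPKM in the Atg5 WT libraries (SD, n = 4 each), and its groups covered nearly the same range.

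The growth and cell cycle group had the lowest median difference of the 5 roles, -0.21, with 5 of 7 members negative and none passing. Gadd45b, a stress sensor that binds the kinase MTK1, had 218, 289.8, 241 and 225 FPKM in KO-labelled mice 1 to 4, against 259.7, 329.8, 332 and 272 FPKM in Atg5 WT mice 1 to 4. The KO-labelled value was lower for all 4 mouse numbers and the ranges overlapped, with a difference of -0.29 ± 0.13 (SE) and an unadjusted limma p of 0.0510. Ier5, which acts with HSF1 and the phosphatase PP2A, had 85.9, 116, 134 and 115 FPKM in KO-labelled mice 1 to 4, against 95.7, 129.9, 194 and 175 FPKM in Atg5 WT mice 1 to 4. It was lower in the KO-labelled library for all 4 mouse numbers, with a difference of -0.36 ± 0.23 (SE). Ier2, an early nuclear protein, had 113 ± 18.4 FPKM in the KO-labelled libraries and 130.4 ± 13.7 FPKM in the Atg5 WT libraries (SD, n = 4 each), again lower for all 4 mouse numbers.

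Within the same group, Btg2, an antiproliferative partner of the CCR4-NOT deadenylase, had 147 ± 14.7 FPKM in the KO-labelled libraries and 146 ± 20.3 FPKM in the Atg5 WT libraries (SD, n = 4 each). Rhob, an early response GTPase of endosomes, had 143 ± 17.95 FPKM in the KO-labelled libraries and 153 ± 25.6 FPKM in the Atg5 WT libraries (SD, n = 4 each). Ccnl1, a cyclin of the splicing machinery, had 72.97 ± 13.8 FPKM in the KO-labelled libraries and 70.3 ± 13.1 FPKM in the Atg5 WT libraries (SD, n = 4 each), with both mouse 1 libraries above the other 6. The differences of these genes were 0.02 ± 0.13, -0.10 ± 0.15 and 0.05 ± 0.17 (SE) for Btg2, Rhob and Ccnl1, each with an interval that includes 0. After the GC trend was removed, the median difference of the whole role group was -0.10.

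Of the 6 heat shock genes none passed, and the median difference was -0.02. Hspa1a and Hspa1b encode the inducible HSP70 proteins and lie near each other on chromosome 17, at 34969190 to 34972156 and at 34956436 to 34959238, both on the minus strand of mm10 and each with 1 exon. Their coding sequences in GENCODE M21 were 99.6% identical, with 8 mismatches and an identical run of 638 bases. Reads from such shared stretches cannot be divided between them with certainty. The whole transcripts were less alike, with 175 mismatches and 93.6% identity over the bases aligned without gaps. The upstream windows are shown because the pair is alike there as well, with 3 mismatches in 250 bases, at chr17:34972157-34972406 and chr17:34959239-34959488 of GRCm38.p6, both on the minus strand.
Hspa1a: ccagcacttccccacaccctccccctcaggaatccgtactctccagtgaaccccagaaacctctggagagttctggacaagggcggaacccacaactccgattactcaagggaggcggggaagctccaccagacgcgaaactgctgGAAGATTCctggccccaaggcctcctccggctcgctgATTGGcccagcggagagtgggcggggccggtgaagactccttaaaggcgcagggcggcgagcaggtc
Hspa1b: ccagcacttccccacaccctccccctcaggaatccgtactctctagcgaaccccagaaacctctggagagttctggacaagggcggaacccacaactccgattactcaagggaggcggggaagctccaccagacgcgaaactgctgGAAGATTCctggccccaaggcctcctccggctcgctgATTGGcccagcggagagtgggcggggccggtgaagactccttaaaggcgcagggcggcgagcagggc
Capitals mark paired heat shock element units (GAANNTTC or TTCNNGAA) and CCAAT boxes, which read ATTGG on this strand. Of all 32851 windows, 33.8% held a CCAAT box.

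Hspa1a had 19.1, 45.6, 28.01 and 53.4 FPKM in KO-labelled mice 1 to 4, against 19.999, 61.98, 71.5 and 37.6 FPKM in Atg5 WT mice 1 to 4. Hspa1b had 43.6, 69.6, 38.04 and 72.4 FPKM in KO-labelled mice 1 to 4, against 41.05, 77.3, 96.1 and 47.2 FPKM in Atg5 WT mice 1 to 4. Both genes were high in KO-labelled mice 2 and 4 and in Atg5 WT mice 2 and 3, and Hspa1a was lowest in the mouse 1 libraries of both groups. Taken as 1 gene, the pair had a difference of -0.25 ± 0.34 (SE), with an adjusted p of 0.999 in limma.

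Hsp90aa1, the inducible cytosolic HSP90, had 204, 186, 98.98 and 109 FPKM in KO-labelled mice 1 to 4, against 208, 129, 119 and 90.1 FPKM in Atg5 WT mice 1 to 4. It was highest in both mouse 1 libraries, with KO-labelled mouse 2 next, and its difference was 0.13 ± 0.30 (SE). Hspa8, the constitutive HSC70, had 686 ± 87.2 FPKM in the KO-labelled libraries and 692 ± 108 FPKM in the Atg5 WT libraries (SD, n = 4 each), and its difference was -0.01 ± 0.14 (SE). Hsph1, an exchange factor for HSP70, lay between 11.3 and 23.2 FPKM in the KO-labelled libraries and between 11.4 and 19.5 FPKM in the Atg5 WT libraries, and Dnajb1, the HSP40 partner of HSP70, lay between 29.7 and 47.2 FPKM in the KO-labelled libraries and between 31.4 and 41.97 FPKM in the Atg5 WT libraries. All 4 genes were lower in KO-labelled mouse 3 and Atg5 WT mouse 4 than in the mouse 1 library of the same group, which Hspa1a was not.

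**Figure D3:**
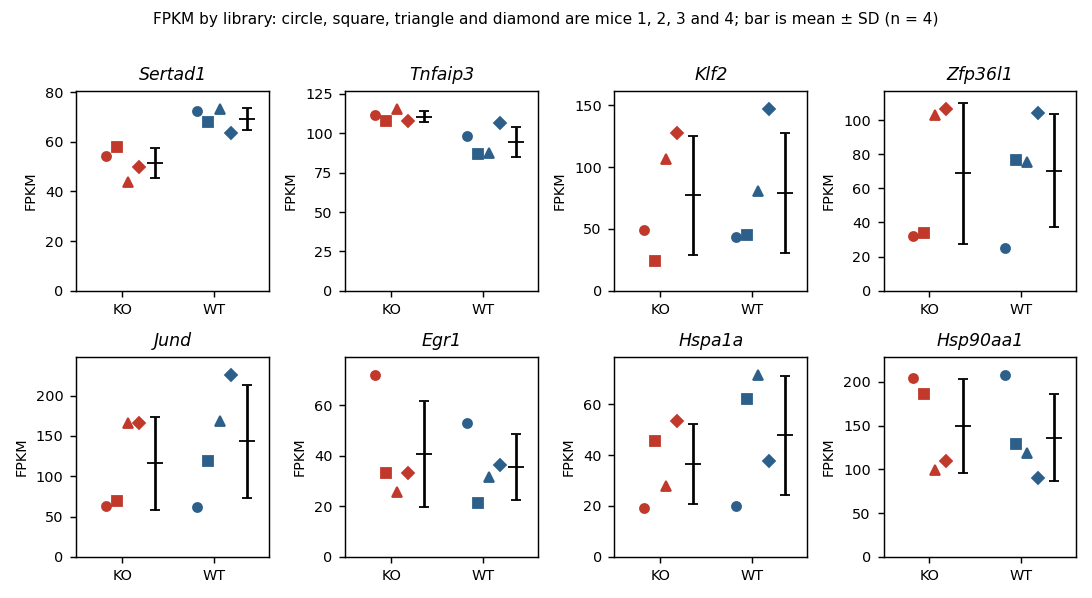
FPKM of 8 genes by library, KO-labelled on the left of Atg5 WT, with symbols for the mouse number and the mean ± SD (n = 4) as a bar. Sertad1 and Tnfaip3 separate by group, Zfp36l1 and Jund are low in both mouse 1 libraries and KO-labelled mouse 2, Klf2 is low in these and Atg5 WT mouse 2, and Egr1 and Hsp90aa1 are highest in the mouse 1 libraries.

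The libraries within a group differed more for these genes than for the typical gene. The median standard deviation within groups was 0.31 on the log2(FPKM + 1) scale for the 33 genes and 0.22 over all genes tested, and the median ratio of the highest to the lowest library was 1.80 for the 33 genes and 1.64 over all genes tested. Both mouse 1 libraries lay below the other 6 for 8 members (Dusp1, Fosl2, Hspa1a, Ier5, Junb, Jund, Socs3 and Zfp36l1), as for 14.7% of all genes. They lay above the other 6 for 4 members (Ccnl1, Egr1, Hsp90aa1 and Hspa8), as for 29.8% of all genes. KO-labelled mouse 2 held the lowest value of 7 of 33 members, close to the share over all genes, 18.9%. Atg5 WT mouse 1 held the lowest value of 8 members, where 16.1% of all genes had their lowest value. Atg5 WT mouse 3 held the highest value of 9 members, where 6.33% of all genes did, and the lowest of none.

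**Figure D4:**
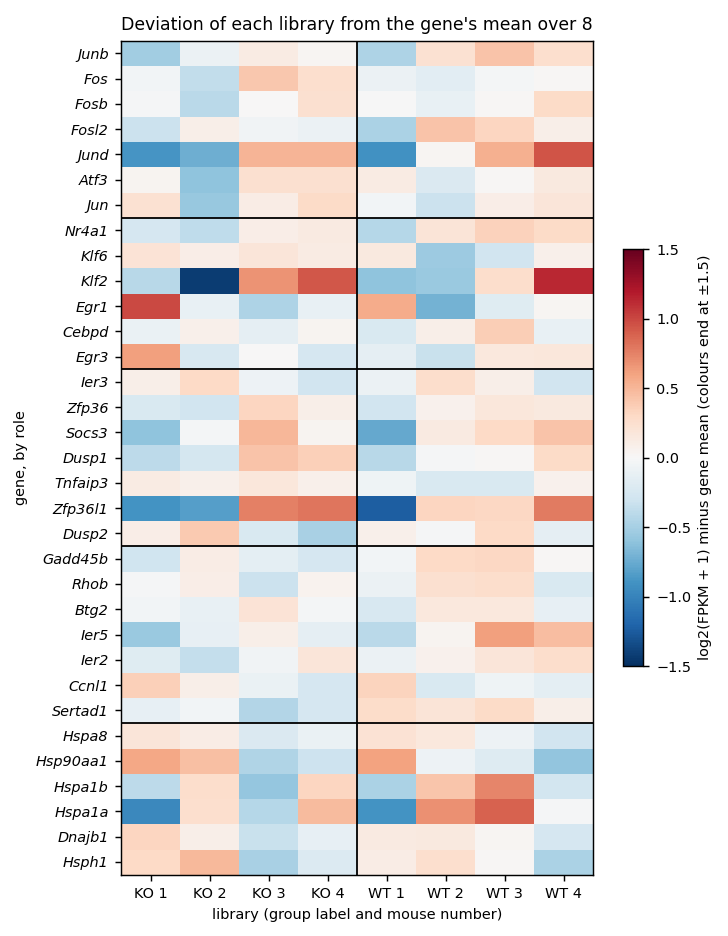
Deviation of each library from the mean of the gene over 8 libraries, in log2(FPKM + 1), for the 33 genes by role, with KO-labelled libraries on the left. Blue cells of Jund and Zfp36l1 mark the mouse 1 libraries of both groups and KO-labelled mouse 2, where Hsp90aa1 is red.

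The difference of the mouse 1 libraries moved with the base composition of the transcripts. The 33 genes had a median transcript GC content of 54.1%, against 49.7% over all genes tested, and a median of 2 exons against 8. A single exon was annotated for 9 of 33 members (27.3%) and for 8.21% of all genes. Mouse 1 libraries minus the others and GC content had a Spearman correlation of -0.64 across 10980 genes and -0.50 across the 33 members, genes being no independent replicates and sharing the same libraries. The difference between the groups correlated with GC content too, at -0.48 across 10980 genes and -0.69 across the 33 members. Across all genes the deviation of single libraries correlated with GC content at -0.60 and -0.51 in KO-labelled mice 1 and 2 and at -0.61 in Atg5 WT mouse 1, and at 0.41 to 0.63 in the other 5 libraries. With the GC trend removed in each library, no member had an unadjusted limma p under 0.05, where 1.34% of all genes were called higher and 1.52% lower. With the mouse block as well, Gadd45b, Ier5 and Sertad1 were lower at that p (4.48% of all genes were called lower) and no member was higher (4.21% were called higher), so that the total was near that over all genes. The part of base composition in the levels of single members was not tested further.

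**Figure D5:**
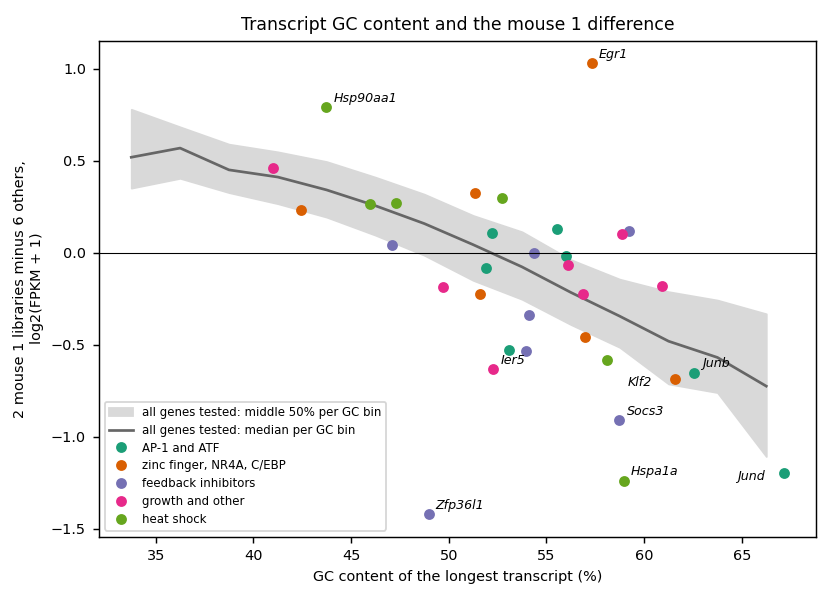
GC content of the longest transcript (percent) against the mean of the 2 mouse 1 libraries minus the mean of the 6 others in log2(FPKM + 1), with the 33 genes as points coloured by role and the median and middle 50% of all genes tested per GC bin as a line and a grey band. The line falls from left to right. Members lie outside the band on both sides, such as Zfp36l1, Hspa1a, Socs3 and Ier5 below it and Egr1, Hsp90aa1 and Dnajb1 above it.

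Counts of members at an unadjusted p moved with the libraries used. Without both mouse 1 libraries, 1 member was higher (Klf6, with 3.43% of all genes called higher) and 5 were lower (Fosl2, Gadd45b, Ier5, Junb and Sertad1, with 2.18% called lower). When KO-labelled mouse 2 was left out as well, 4 were higher (Dusp1, Fos, Klf6 and Tnfaip3, with 5.79% of all genes called) and 5 were lower (Dusp2, Fosl2, Gadd45b, Junb and Sertad1, with 4.33%). Without Atg5 WT mouse 1 alone there were 8, 2 higher (4.79% of all genes were called higher) and 6 lower (2.77% were called lower). Sertad1 was among them each time, and no member passed after adjustment in any of these fits.

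Other genes of the same systems were read from lists of 55 further early response genes, 32 chaperone genes and 29 upstream kinases and transcription factors, all of them tested. No gene of the 3 lists passed after adjustment in limma, and 2 in all had an unadjusted p under 0.05. Cxcl2, a neutrophil chemokine, had 1061, 1593, 992 and 826 FPKM in KO-labelled mice 1 to 4, against 899, 715, 701 and 727 FPKM in Atg5 WT mice 1 to 4, with KO-labelled mouse 2 highest and a difference of 0.52 ± 0.19 (SE). Trib1, a pseudokinase that controls C/EBP proteins, had 42.2 ± 3.41 FPKM in the KO-labelled libraries and 49.997 ± 4.93 FPKM in the Atg5 WT libraries (SD, n = 4 each), and Socs1, an inhibitor of interferon signalling, had 40.2 ± 12.3 FPKM in the KO-labelled libraries and 55.4 ± 14.6 FPKM in the Atg5 WT libraries (SD, n = 4 each). The median difference of the early response list was -0.05, with 22 genes positive and 33 negative, where 41.5% of all genes were negative.

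Among the chaperone genes the median difference was 0.08, with 23 of 32 positive, where 58.5% of all genes were. Hspb1, which encodes HSP27, had 2.73, 2.73, 5.07 and 7.92 FPKM in KO-labelled mice 1 to 4, against 5.09, 10.2, 9.34 and 8.72 FPKM in Atg5 WT mice 1 to 4, the lowest values being those of KO-labelled mice 1 and 2. Its difference was -0.80 ± 0.30 (SE), with an unadjusted limma p of 0.0255. Bag3, an HSP70 co-chaperone induced by HSF1, had 23.97 ± 1.96 FPKM in the KO-labelled libraries and 28.2 ± 3.27 FPKM in the Atg5 WT libraries (SD, n = 4 each). Upstream genes had a median difference of 0.02. Elk3, an SRF partner, had separate groups with 28.8 ± 1.11 FPKM in the KO-labelled libraries and 25.6 ± 1.103 FPKM in the Atg5 WT libraries (SD, n = 4 each). Groups were separate in that direction for 1.15% of all genes. Elk4, another SRF partner, differed by 0.15 ± 0.10 (SE) and Map2k1, which encodes MEK1, by 0.15 ± 0.12 (SE).

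Markers of other cells in the sort varied between libraries as well. The summed level of 15 fibroblast markers was 47.7 to 415 FPKM in the KO-labelled libraries and 33.6 to 224 FPKM in the Atg5 WT libraries, the highest value of each group being that of mouse 1, and Lum and Fap stayed under 1 FPKM. The 9 neutrophil markers summed to 70.9 to 145 FPKM in the KO-labelled libraries and 41.2 to 97.8 FPKM in the Atg5 WT libraries, with Ly6g, Cxcr2, Camp and Ngp under 1 FPKM everywhere. For the 12 lymphocyte markers the sums were 2.14 to 4.71 FPKM and 2.84 to 8.93 FPKM in the KO-labelled and the Atg5 WT libraries. Sums of the 8 monocyte markers were 1251 to 1641 FPKM in the KO-labelled libraries and 1021 to 1471 FPKM in the Atg5 WT libraries, of which Fn1 alone made up 1007 to 1440.1 FPKM in the KO-labelled and 773 to 1294 FPKM in the Atg5 WT libraries. Of the markers that were tested, 7 of 8 monocyte, 4 of 5 neutrophil and 9 of 9 fibroblast markers had positive differences, KO-labelled minus Atg5 WT, with medians of 0.31, 0.66 and 0.58, and none passed after adjustment in limma. Over all genes tested, 58.5% of differences were positive. Negative differences were found for 7 of 10 macrophage and 3 of 4 dendritic cell markers, with medians of -0.10 and -0.23. The 1 lymphocyte and 2 epithelial markers tested were negative too. The 10 macrophage markers summed to 4817 to 7154 FPKM in the KO-labelled libraries and 6401 to 7462 FPKM in the Atg5 WT libraries. At an unadjusted limma p under 0.05, 1 of them was higher and 2 were lower, where 1.2% and 0.826% of all genes were called. Itgam, which encodes CD11b, had separate groups, at 290 to 349 FPKM in the KO-labelled and 243 to 269 FPKM in the Atg5 WT libraries. Groups were separate in that direction for 1.15% of all genes. Krt20 was at 0 in all libraries and Krt8, Krt18, Krt19 and Cldn4 under 1 FPKM, among 7 epithelial markers summing to 36.1 to 70.1 FPKM in the KO-labelled libraries and 43.4 to 74.4 FPKM in the Atg5 WT libraries. Most of that sum was Cdh1, at 34.7 to 68.2 FPKM in the KO-labelled and 42.6 to 71.9 FPKM in the Atg5 WT libraries. The 7 endothelial markers summed to 11.8 to 19.6 FPKM in the KO-labelled and 12.1 to 19.9 FPKM in the Atg5 WT libraries, and the 7 dendritic cell markers to 19.3 to 38.6 FPKM in the KO-labelled and 27.1 to 50.2 FPKM in the Atg5 WT libraries. Mitochondrially encoded mRNAs took 0.965% to 1.503% of fragments in the KO-labelled libraries and 0.902% to 1.51% in the Atg5 WT libraries, with both mouse 1 libraries and KO-labelled mouse 2 highest. The part of these cells and of RNA composition in the levels of the 33 genes was not tested.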

How the data were processed

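RNA was sequenced from sorted macrophages of 8 tumors, 4 per group. CASAVA, STAR and the build mm10 are named, without versions or roles, in the submitters' processing notes. The sources used here do not give the counting tool, the strand setting or the annotation release. The authors deposited FPKM values for 35275 genes with coordinates and gene lengths, and 97.8% of the gene identifiers are in GENCODE M21. FPKM times gene length gave whole fragments for 100% of values (within 0.01 fragments). Fragments of any 2 libraries differed by more than counting error, with chi-square values of at least 8.497 per degree of freedom.

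Two-sided tests came from limma 3.58.1 (R 4.3.3), fitted to log2(FPKM + 1) with a trend of variance on level. They covered 11019 genes, those averaging 1 FPKM or more, with Benjamini-Hochberg adjustment over all of them at 0.05. Fold changes on this scale understate those of low genes. The members, lists and alternatives were chosen with earlier results of these data known, and the GC correction and the fits without KO-labelled mouse 2 beside mouse 1 were added after the data were seen. Values per library are given for members with separate groups, an unadjusted p under 0.05 or one of the 10 largest ranges, and for others chosen after their values were seen. From each further list, the 3 genes with the smallest p are named, except 1 that is not reported here. The fits were tested on simulated data.

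Mouse numbers are shared by the groups. Deviations of same-numbered libraries from their group means correlated over genes at 0.841, 0.208, 0.458 and 0.471 for mice 1 to 4, each over 0.1, so the block was set beside the main fit. The pairing comes from this check, not from the labels, and without mouse 1 the correlations were 0.297, -0.134 and 0.205 for mice 2 to 4. Transcript GC content was read from the longest GENCODE M21 transcript and upstream sequence from RefSeq on GRCm38.p6, where windows of 27 of 33 members were searched.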

Additional observations from a re-analysis of the deposited data

Results flagged for a closer look

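Among 70 sets of 4 libraries checked (33 members, Atg5 and Lyz2 in each group), 2 held a library far from the other 3, where chance gives about 1 in 20. Egr1 was at 71.8 FPKM in KO-labelled mouse 1, while the other KO-labelled libraries lay between 25.5 and 32.9 FPKM. Atg5 was at 6.73 FPKM in Atg5 WT mouse 1, while the other Atg5 WT libraries lay between 3.504 and 3.93 FPKM.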

How the results depend on the processing

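No member passed an adjusted p of 0.05 in limma in any of the 19 other settings run, with other pseudocounts, filters, scalings, voom, the mouse block, the GC correction or libraries left out. The number of genes called over the whole table was 0, and it was 1 with median-of-ratios scaling, with the mouse block, without both mouse 1 libraries, without these and KO-labelled mouse 2, and with the GC correction. It was 2 with the GC correction and the block, 8 with voom and the block, and 0 to 1 with each library left out, where the 1 came without Atg5 WT mouse 1. Wherever a single gene was called it was Atg5, and the cause was not tested. The median difference of the members lay between -0.11 and -0.0007 with each library left out, and between -0.12 and -0.01 in the other settings, moving by less than the spread between replicates. The direction of Sertad1, Tnfaip3, Klf6, Gadd45b, Ier5 and Junb was kept in every setting. So was that of Fos, Fosl2, Nr4a1, Ier2, Rhob and Hspa1a. The sign of the other members was not, including that of Jund, with a difference of -0.30 in the main fit. It turned for Dnajb1 and Hspa8 with TPM scaling, for Btg2 and Ier3 with median-of-ratios scaling, for Btg2, Ccnl1, Hsph1 and Socs3 with the GC correction, and for up to 12 members where libraries were left out. Each member had at least 114 fragments in each library.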

Other observations

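The ratio of Hspa1b to Hspa1a was 2.29 in KO-labelled mouse 1 and 2.05 in Atg5 WT mouse 1, and between 1.36 and 1.53 in the other KO-labelled libraries and between 1.25 and 1.34 in the other Atg5 WT libraries. The transcripts have GC contents of 58.1% (Hspa1b) and 58.9% (Hspa1a) and identical runs of up to 638 bases, and the sources used here do not say how shared reads were assigned.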
